A study of Arabidopsis thaliana with 12 samples.

Results

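The 9 genes described here encode the plastid proteins that hold a growing fatty acid, place the first double bond in it and release it for export. They are the acyl carrier proteins ACP1 to ACP5, the stearoyl-ACP desaturase SSI2 (also called FAB2), and the acyl-ACP thioesterases FATA1, FATA2 and FATB. They were taken by locus identifier, and all 9 were found among 33602 genes. All 9 passed the filter on low values (at least 1 FPKM in at least 3 libraries), which 20222 genes passed. Poly-A RNA of developing Arabidopsis thaliana seeds, dissected 9 days after pollination, was sequenced in 12 libraries, 3 for each of 4 groups. The groups were dellaq seeds, lec1-4 seeds, and 2 separately named sets of wild-type seeds, Col-0-2 and Col-0-1. The labels give the mutants by name only, with no list of the loci affected. They pair neither mutant with a wild-type set, so each mutant was compared with both. Nothing says that replicates came from separate plants, and the p-values reflect only the variation among these libraries, which could be technical.

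In plastids, acyl carrier protein carries the growing acyl chain on a phosphopantetheine arm attached to a serine. The desaturase turns stearoyl-ACP into oleoyl-ACP. The thioesterases then end synthesis by cutting the fatty acid from the carrier: FATA acts mainly on oleoyl-ACP, and FATB mainly on saturated acyl-ACP. In maturing Arabidopsis embryos the released fatty acids feed the storage oil. DELLA proteins repress gibberellin responses, and LEC1 promotes embryo maturation.

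The stretch around the codon of the phosphopantetheine-bearing serine (capitals) is shown because the results compare the carriers with each other. Each line is 39 bases of spliced coding sequence, 5′ to 3′, from RefSeq TAIR10.1.
ACP1: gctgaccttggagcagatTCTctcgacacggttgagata
ACP2: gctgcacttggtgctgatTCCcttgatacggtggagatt
ACP3: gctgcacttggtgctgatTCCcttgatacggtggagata
ACP4: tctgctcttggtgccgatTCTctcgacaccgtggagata
ACP5: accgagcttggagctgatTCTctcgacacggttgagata
ACP2 and ACP3 differed at 1 of these bases, and ACP1, ACP4 and ACP5 differed from ACP2 at 9, 8 and 10. Over the whole coding sequence ACP2 and ACP3 were 94.2% identical, and their longest exact shared stretch of transcript was 63 bases. ACP1 and ACP5 were 77.1% identical, with a longest shared stretch of 26 bases. FATA1 and FATA2 were 81.8% identical, with 38 bases. The single values of ACP2 and ACP3 are therefore uncertain to the extent that the authors' counting could split their reads. Libraries did not mark strand. By the reference annotation ACP5 overlaps an opposite gene, AT5G27210, by 148 bases, and ACP1 overlaps AT3G05010 by 44. Those neighbours measured 4.14 to 10.8 FPKM and 13.6 to 18.998 FPKM over all libraries, against 43.8 FPKM for the lowest ACP5 value and 407 FPKM for the lowest ACP1 value.

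The start regions of ACP1 and ACP5 held the same motif in nearly the same surroundings. The AW-box is the motif bound by WRINKLED1 (WRI1), an activator of fatty acid synthesis genes. It was searched on both strands from 250 bases before to 50 bases after the annotated start. The sites are shown because they let the start regions of these carriers be compared base by base. ACP5 had the largest change of the 9 genes in each comparison of a mutant with wild type, but ACP1 did not come next in all of them. In dellaq against Col-0-1 ACP3 rose more than ACP1 (0.50 and 0.45), and in lec1-4 against Col-0-2 FATA1, ACP3 and ACP2 fell more than ACP1. Capitals mark the fixed letters of the motif, 5′ to 3′ along the gene.
ACP1 (TAIR10.1 chr3:1392928-1392957, minus strand): ttcacgctCtTtGtacactcCGccctctct
ACP5 (TAIR10.1 chr5:9571139-9571168, plus strand): ttcacgctCcTtGaacaatcCGccatctct
Of these 30 bases, 26 were identical. The ACP1 motif began at base 6 of the annotated transcript. The ACP5 motif began 38 bases before the start codon, since that gene model has no annotated leader. The motif was found in 2 of the 9 genes and in 11.9% of 27443 promoters of the same length. The G-box CACGTG was found in ACP1 and FATA1 (2 of 9, against 7.68% of promoters), and the RY element CATGCA in ACP5 alone (1 of 9, against 9.72%). The ACP5 match to the RY element lay at bases 30 to 35 of the gene model, which begins at the start codon, and not before the start. No overlap between the motifs was found in these windows. These matches are descriptions of the letters and do not show binding.

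Estimated depth was 13700000 to 19400000 fragments per library, inferred from the steps between low FPKM values and reference exon lengths. On the same inference the 9 genes drew 388 to 16763 fragments each per library. LEC1 averaged 2.81 ± 0.543 FPKM in lec1-4, compared with 124 ± 1.02 in Col-0-2 and 80.5 ± 12.9 in Col-0-1 (SD, n = 3 each). Among the 5 DELLA genes RGA1, RGL1 and RGL2 had lower levels in dellaq than in both wild-type sets (limma, described with the results), and GAI and RGL3 were not called. Plastid-encoded genes summed to 7116 to 8593 FPKM in dellaq and 127 to 186 in lec1-4, compared with 4523 to 5039 in Col-0-2 and 172 to 251 in Col-0-1. Each library's deviations from the gene means were also set beside gene length. Spearman's rho, across genes that are not independent, was -0.17 to -0.15 in dellaq and 0.24 to 0.25 in lec1-4, against -0.26 to -0.19 in Col-0-2 and 0.27 to 0.30 in Col-0-1. On both measures dellaq and Col-0-2 fell on 1 side and lec1-4 and Col-0-1 on the other. The comparisons of dellaq with Col-0-1 and of lec1-4 with Col-0-2 cross this division, and those of dellaq with Col-0-2 and of lec1-4 with Col-0-1 do not. The direct comparisons of dellaq with lec1-4 and of Col-0-2 with Col-0-1 cross it too. The part of these library features in the results was not tested. The length trend was removed as an alternative, and calls or directions of the 9 genes that this changed in comparisons of a mutant with wild type are given beside them. The seed was represented by all markers fixed for its tissues: embryo maturation (4 of 4 tested), seed coat (4 of 4) and endosperm (2 of 2), with silique wall genes also detected (5 of 5). The embryo markers summed to 5694 to 9869 FPKM in dellaq and 130 to 165 in lec1-4, compared with 174 to 217 in Col-0-2 and 727 to 1424 in Col-0-1. Most of the lec1-4 sum was FUS3, which was higher there than in Col-0-2 (1.17 on the log2 scale, adjusted p = 1.7e-07). Against Col-0-1 FUS3 was lower in lec1-4 (-0.29, adjusted p = 0.0214). CRU3 was not called in lec1-4 against Col-0-2 (0.74, adjusted p = 0.519), and OLEO1 and ABI3 were lower than in both sets. In dellaq all 4 were higher than in Col-0-2, but FUS3 and ABI3 were not called against Col-0-1 (0.09 and 0.18, adjusted p = 0.317 and 0.0713). Seed coat markers summed to 765 to 901 FPKM in dellaq and 1713 to 1789 in lec1-4, compared with 1531 to 1774 in Col-0-2 and 1449.6 to 1635 in Col-0-1. Most of the dellaq sum was TT10, at 641 ± 66.2 FPKM. TT10 was higher in dellaq than in Col-0-2 (0.19 on the log2 scale, adjusted p = 0.0206) and lower than in Col-0-1 (-0.31, adjusted p = 0.00092). The other 3, BAN, DFR and GSTF12, were lower in dellaq than in both sets, by log2 changes between -3.63 and -1.66. Endosperm markers summed to 2728 to 2997 FPKM in dellaq and 556 to 720.2 in lec1-4, compared with 442 to 529.6 in Col-0-2 and 1210 to 1644 in Col-0-1, and nearly all of this was EPR1. The other endosperm marker, RGE1, went the other way in dellaq, at 17.2 ± 3.28 FPKM compared with 37.1 ± 2.25 in Col-0-2 and 37.0 ± 2.26 in Col-0-1. Against either set that was -1.08 on the log2 scale (adjusted p = 1.9e-06 for each). The sum of the silique wall markers was lowest in dellaq, at 101 to 122.8 FPKM, and reached 179 to 197 in lec1-4, compared with 139 to 152 in Col-0-2 and 172 to 178 in Col-0-1. Most of the dellaq sum was SHP1 and SHP2, at 34.1 ± 2.23 and 55.8 ± 10.8 FPKM. AGL8, SHP2 and ALC were lower in dellaq than in both sets. SHP1 and IND were lower than in Col-0-1 but were not called against Col-0-2 (0.07 and -0.40, adjusted p = 0.346 and 0.14). No marker was at 0 throughout a group. The part of these tissue markers in the results was not tested. In whole seeds a smaller share of cells of a type and less RNA per cell cannot be told apart.

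In dellaq seeds 5 of the 9 genes rose against both wild-type sets (ACP1, ACP3, ACP5, SSI2 and FATA1) and none fell against both. In lec1-4 seeds 7 fell against both sets (ACP1, ACP2, ACP3, ACP5, SSI2, FATA1 and FATA2) and none rose against both. FATB was called in none of these comparisons, and ACP4 was called lower in dellaq against Col-0-1 and higher in lec1-4 against Col-0-2. All tests are limma on log2(FPKM + 1) with Benjamini-Hochberg adjustment over 20222 genes, and changes are on that log2 scale. The background was high. In dellaq 9.78% of all tested genes were higher and 28.4% lower than both sets, and in lec1-4 8.19% were higher and 4.01% lower. Those shares add to 38.2% and 12.2% of all tested genes. Against Col-0-1, 6 of the 9 were higher in dellaq and 1 lower, where 19.4% of all genes were higher and 50.9% lower (70.3% in either direction). Against Col-0-2, 6 were higher in dellaq and none lower, where 21.9% of all genes were higher and 41.6% lower (63.5% in either direction). In lec1-4, 1 was higher and 7 lower than in Col-0-2, where 42.7% of all genes were higher and 23.3% lower (65.9% in either direction). Against Col-0-1, none was higher in lec1-4 and 7 were lower, where 15.8% of all genes were higher and 10.7% lower (26.6% in either direction). Directly between the mutants, 7 were higher and 1 lower in dellaq than in lec1-4, where 20.2% of all genes were higher and 54.6% lower (74.8% in either direction). The 1 lower was ACP4 (-0.42, adjusted p = 0.000121), a call lost under median-ratio scaling (-0.13, adjusted p = 0.0821). The libraries of the compared groups did not overlap for 9 of the 9 genes in dellaq against Col-0-1 (73% of all genes), 9 in dellaq against Col-0-2 (67.6%), 8 in lec1-4 against Col-0-2 (70.9%), 7 in lec1-4 against Col-0-1 (43.2%) and 9 in dellaq against lec1-4 (76.7%). Most of these shares are so large that a call of a single gene is common in these data. The median change of the 9 in dellaq was 0.40 relative to Col-0-1 and 0.36 relative to Col-0-2, beside -0.22 and -0.12 over all tested genes. In lec1-4 it was -0.26 relative to Col-0-2 and -0.41 relative to Col-0-1, beside 0.13 and 0.05 over all tested genes. Comparisons that use the same mutant or wild-type libraries are not independent of each other. Sizes depended on the scaling in the comparisons that cross the library division. The 4 rescalings were median-ratio, upper-quartile, equal FPKM sums and length trend removed. For comparisons of a mutant with wild type, the range over them stands with each gene for called values that moved by over 1.5 times.

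**Figure D1:**
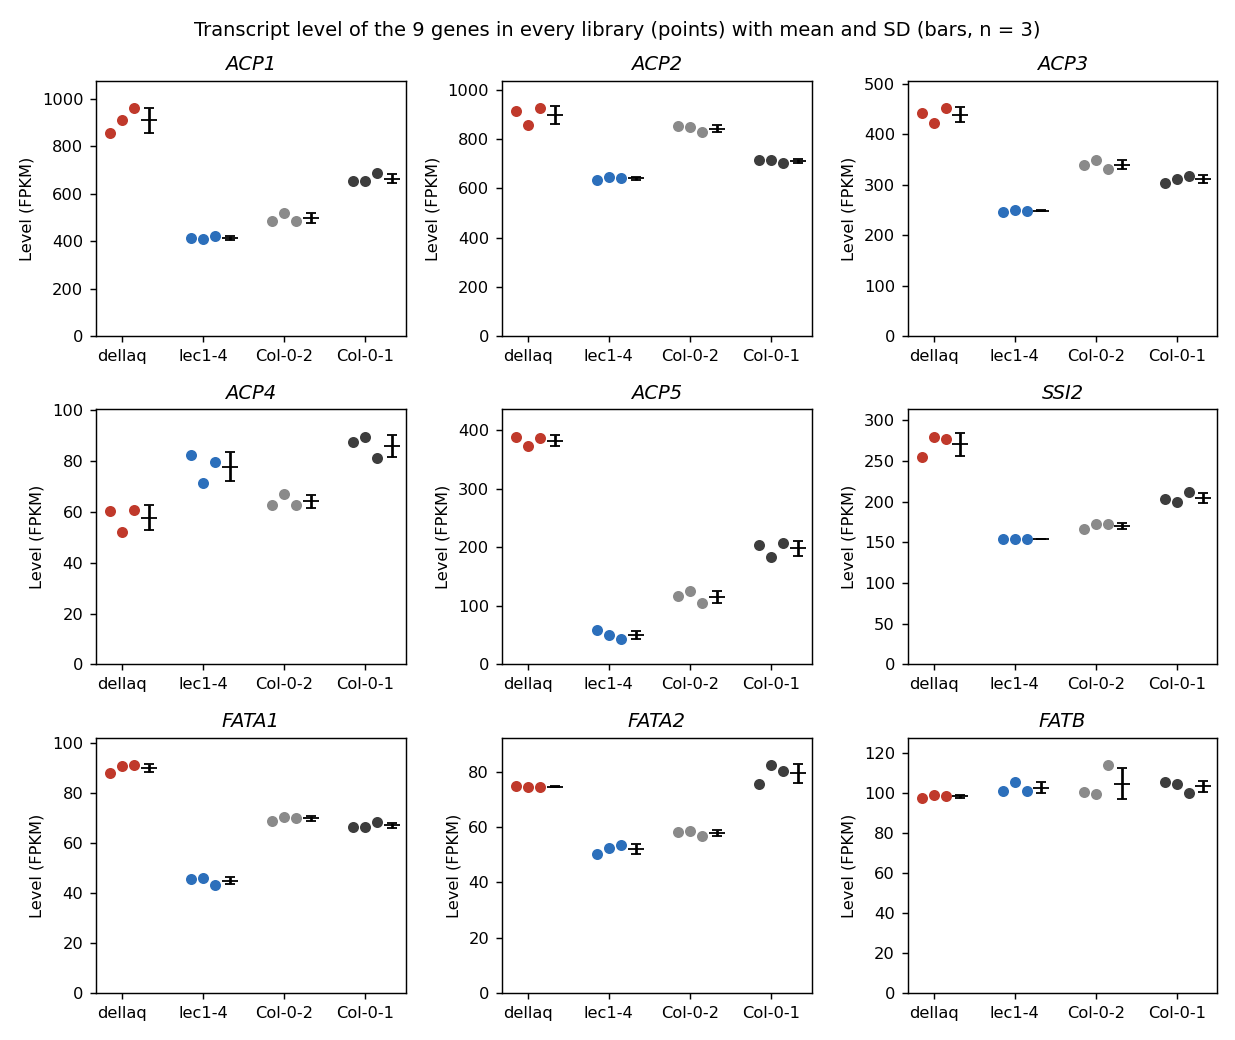
Level in FPKM (vertical axes, starting at 0) of each of the 9 genes in the 12 libraries, with 1 point per library and the group mean ± SD beside them (n = 3). The dellaq points of ACP1, ACP3, ACP5, SSI2 and FATA1 lie above all others, the lec1-4 points of ACP5 (43.8 to 58.0) lie below all others, and FATB lies between 97.5 and 114 FPKM in every library.

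ACP5 (AT5G27200, TAIR10.1 chr5:9571185-9572213, plus strand) had the largest change of the 9 genes in each of the 4 comparisons of a mutant with wild type. It measured 388, 372 and 386 FPKM in dellaq and 58.0, 50.1 and 43.8 FPKM in lec1-4, against 116, 126 and 105 FPKM in Col-0-2 and 203, 184 and 208 FPKM in Col-0-1. The 4 groups did not overlap. In dellaq the log2 change was 0.94 ± 0.090 (SE) relative to Col-0-1 and 1.72 ± 0.090 relative to Col-0-2 (adjusted p = 1.8e-06 and 1.7e-08). In lec1-4 it was -1.181 ± 0.090 relative to Col-0-2 and -1.95 ± 0.090 relative to Col-0-1 (adjusted p = 3.5e-07 and 4.2e-08). The wild-type sets themselves differed by -0.77 (Col-0-2 over Col-0-1, adjusted p = 1.1e-05, -1.22 to -0.65 over the 4 rescalings). Over the 4 rescalings the fall in lec1-4 against Col-0-2 ranged from -1.34 to -0.77. ACP5 was 2.90 higher in dellaq than in lec1-4 on the log2 scale (adjusted p = 1.8e-10).

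ACP1 (AT3G05020, chr3:1391632-1392954, minus strand) ran in the same order as ACP5 over the groups, with smaller changes. It measured 857, 909 and 959.6 FPKM in dellaq and 412, 407 and 423 FPKM in lec1-4, against 483, 519.6 and 484 FPKM in Col-0-2 and 651, 653 and 686 FPKM in Col-0-1. No groups overlapped. The log2 change in dellaq was 0.45 ± 0.050 (SE) relative to Col-0-1 and 0.87 ± 0.050 relative to Col-0-2 (adjusted p = 6.1e-06 and 2.9e-08). In lec1-4 it was -0.26 ± 0.050 relative to Col-0-2 and -0.68 ± 0.050 relative to Col-0-1 (adjusted p = 0.000644 and 1.6e-06). The rise in dellaq against Col-0-1 ranged from 0.26 to 0.71 over the 4 rescalings. The fall in lec1-4 against Col-0-2 ranged from -0.42 to 0.09. That fall did not hold with equal FPKM sums (-0.10, adjusted p = 0.0714), and with the length trend removed the value was 0.09 (adjusted p = 0.154).

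ACP2 (AT1G54580, chr1:20389347-20391147, plus strand), the most abundant carrier in lec1-4 and both wild-type sets, fell in lec1-4 against both and rose in dellaq against Col-0-1 alone. It averaged 898 ± 36.6 FPKM in dellaq and 642 ± 6.43 in lec1-4, compared with 843 ± 12.8 in Col-0-2 and 712 ± 6.58 in Col-0-1 (SD, n = 3 each). It rose in dellaq against Col-0-1 (0.33, adjusted p = 1.4e-05, 0.15 to 0.59 over the 4 rescalings). Against Col-0-2 the change was 0.09 (adjusted p = 0.0695), and it passed with median-ratio scaling (0.23, adjusted p = 0.00031), upper-quartile scaling (0.18, adjusted p = 0.00162), the length trend removed (0.22, adjusted p = 0.000268) and without dellaq replicate 2 (0.12, adjusted p = 0.0183). It fell in lec1-4 by 0.39 against Col-0-2 and by 0.15 against Col-0-1 (adjusted p = 4.3e-06 and 0.0176). The change against Col-0-2 ranged from -0.55 to -0.24 over the 4 rescalings. The call against Col-0-1 ended when lec1-4 replicate 1 or Col-0-1 replicate 1 was left out (adjusted p = 0.0621 and 0.0561). ACP3 (AT1G54630, chr1:20401357-20403166, minus strand) averaged 439 ± 14.8 FPKM in dellaq and 248 ± 1.59 in lec1-4, compared with 340 ± 9.01 in Col-0-2 and 311 ± 7.76 in Col-0-1. It was higher in dellaq (0.50 against Col-0-1, 0.37 against Col-0-2, adjusted p = 3.3e-07 and 4.2e-06) and lower in lec1-4 (-0.45 against Col-0-2, -0.32 against Col-0-1, adjusted p = 8.4e-07 and 7.6e-05). Over the 4 rescalings its rise against Col-0-1 ranged from 0.31 to 0.75, and its fall in lec1-4 against Col-0-2 from -0.61 to -0.30.

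ACP4 (AT4G25050, chr4:12870006-12871564, plus strand), known as the main leaf isoform, held no common direction. It measured 60.4, 52.1 and 60.7 FPKM in dellaq and 82.3, 71.4 and 79.6 FPKM in lec1-4, against 62.7, 67.0 and 62.5 FPKM in Col-0-2 and 87.3, 89.4 and 80.9 FPKM in Col-0-1. The lec1-4 and Col-0-1 libraries were thus the higher side and overlapped each other. In dellaq it fell against Col-0-1 (-0.57, adjusted p = 1.4e-05, -0.75 to -0.31 over the 4 rescalings), while the change against Col-0-2 was -0.15 (adjusted p = 0.0732), which passed with equal FPKM sums (-0.19, adjusted p = 0.0302). In lec1-4 it rose against Col-0-2 (0.27, adjusted p = 0.00386), a call lost under median-ratio scaling (0.11, adjusted p = 0.136). With equal FPKM sums that rise was 0.43. Against Col-0-1 its change was -0.14 (adjusted p = 0.152), which passed with the length trend removed (-0.19, adjusted p = 0.0349).

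**Figure D2:**
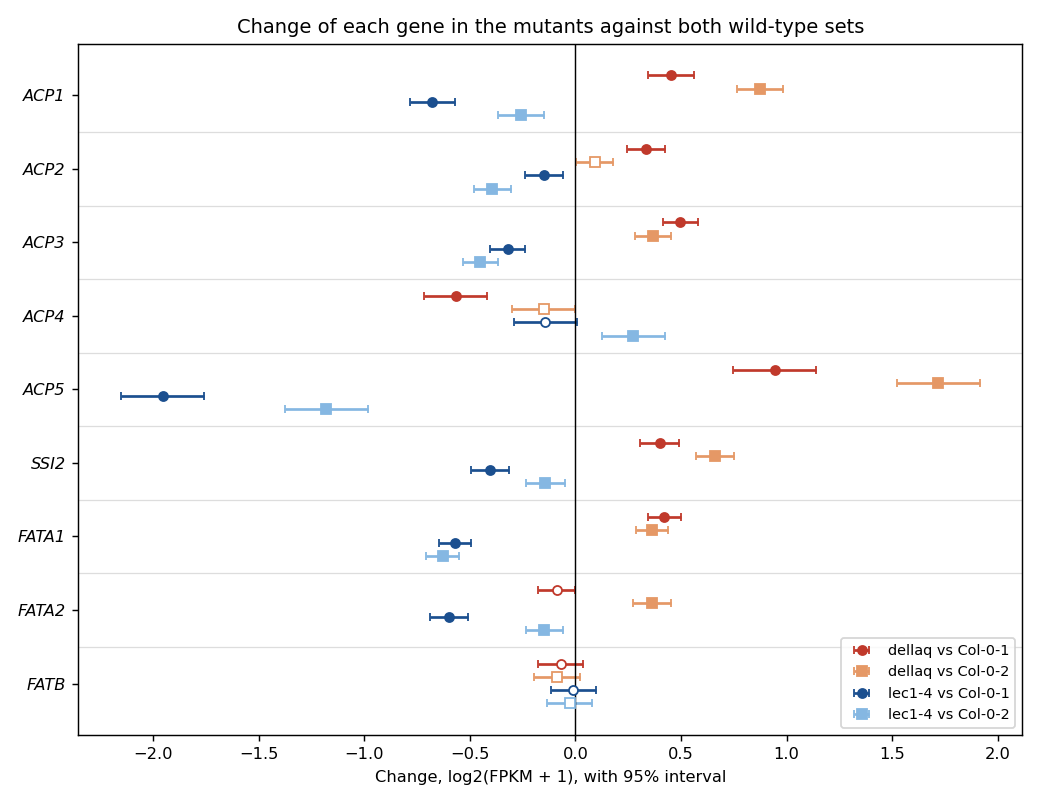
Log2 change of each gene (horizontal axis, log2(FPKM + 1) scale) in dellaq and lec1-4 against each wild-type set, with 95% intervals, and with filled symbols where the adjusted p is under 0.05. ACP5 lies farthest from 0 on both sides, from -1.95 to 1.72, and all 4 intervals of FATB include 0.

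The makeup of the carrier pool also differed. Summed over the 5 genes, carrier transcripts reached 2685 ± 87.5 FPKM in dellaq and 1433 ± 5.91 in lec1-4, compared with 1858 ± 49.7 in Col-0-2 and 1970 ± 23.3 in Col-0-1 (mean ± SD, n = 3 libraries each). ACP5 made up 14.2 ± 0.367% of the sum in dellaq and 3.54 ± 0.499% in lec1-4, compared with 6.22 ± 0.399% in Col-0-2 and 10.06 ± 0.570% in Col-0-1. ACP4 took 2.15 ± 0.141% in dellaq and 5.43 ± 0.378% in lec1-4, compared with 3.45 ± 0.0613% in Col-0-2 and 4.36 ± 0.274% in Col-0-1. A ratio within a library is the same whatever factor the library is multiplied by, but removing the length trend can change it. ACP5 over ACP4 was 6.36 to 7.15 in dellaq and 0.551 to 0.705 in lec1-4, compared with 1.68 to 1.88 in Col-0-2 and 2.05 to 2.56 in Col-0-1. ACP4 was thus above ACP5 in the 3 lec1-4 libraries and below it in the other 9. ACP1 over ACP2 followed another division, at 0.939 to 1.06 in dellaq and 0.629 to 0.659 in lec1-4, compared with 0.567 to 0.612 in Col-0-2 and 0.911 to 0.974 in Col-0-1, with dellaq and Col-0-1 overlapping. Comparing levels between the carriers depends on the transcript lengths behind the FPKM, and the sources used here do not give them. By the reference annotation the exons of ACP5 cover 644 bases and those of the other 4 cover 721 to 1207. No test was made of these sums, shares and ratios.

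**Figure D3:**
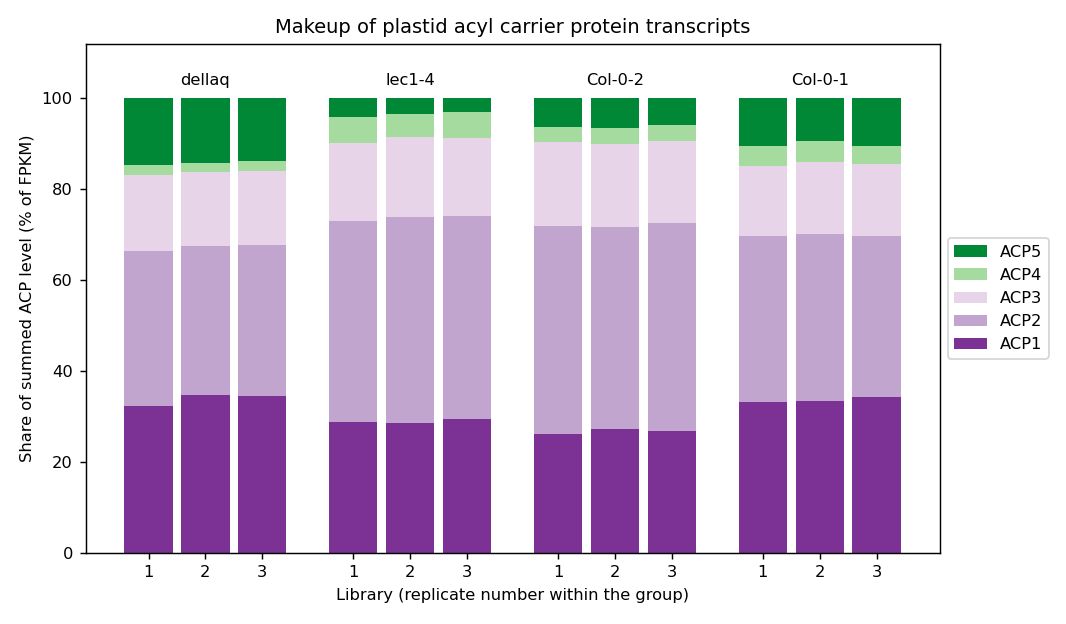
Share of each carrier gene in the summed FPKM of ACP1 to ACP5 (vertical axis, percent), with 1 bar per library. ACP5 takes 13.9 to 14.6% in the dellaq bars and 3.05 to 4.05% in the lec1-4 bars, against 5.80 to 6.59% in Col-0-2 and 9.40 to 10.4% in Col-0-1.

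SSI2 (AT2G43710, chr2:18119873-18122889, plus strand), a desaturase that makes oleoyl-ACP, rose in dellaq and fell in lec1-4. It measured 255, 280 and 277 FPKM in dellaq and 154.4, 154.6 and 153.9 FPKM in lec1-4, against 166, 172 and 173 FPKM in Col-0-2 and 203, 199 and 212 FPKM in Col-0-1. No groups overlapped. In dellaq the log2 change was 0.40 ± 0.042 (SE) relative to Col-0-1 and 0.66 ± 0.042 relative to Col-0-2 (adjusted p = 4.1e-06 and 6.2e-08). In lec1-4 it was -0.14 ± 0.042 relative to Col-0-2 and -0.41 ± 0.042 relative to Col-0-1 (adjusted p = 0.00975 and 2.3e-05). Over the 4 rescalings the rise against Col-0-1 ranged from 0.21 to 0.66, and the change in lec1-4 against Col-0-2 from -0.32 to 0.01. With equal FPKM sums SSI2 in lec1-4 against Col-0-2 was 0.01 (adjusted p = 0.816).

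The other 6 genes of the stearoyl-ACP desaturase family did not move together. Against both wild-type sets 4 were higher in dellaq, and in lec1-4 1 was higher and 2 lower. The gene higher in lec1-4 was FTM1 (AT1G43800), at 0.38 against Col-0-2 and 0.49 against Col-0-1 (adjusted p = 0.0291 and 0.0203), named after its values were seen. AT3G02630 stood nearest SSI2 in level, with 254 ± 6.63 FPKM in dellaq and 148 ± 3.84 in lec1-4, compared with 166 ± 5.14 in Col-0-2 and 203 ± 1.40 in Col-0-1. Its changes were 0.32 against Col-0-1 and 0.61 against Col-0-2 in dellaq, and -0.16 against Col-0-2 and -0.45 against Col-0-1 in lec1-4 (adjusted p = 9.1e-06, 4.2e-08, 0.00242 and 3.7e-06, one for each change as listed). AT3G02610 rose in dellaq (0.58 against Col-0-1 and 1.19 against Col-0-2, adjusted p = 1.8e-06 and 7.7e-09). AT5G16240 fell in lec1-4 (-0.48 against Col-0-2 and -0.72 against Col-0-1, adjusted p = 3.5e-07 and 9.0e-08). AT5G16230 and AT3G02620 averaged 0.808 to 1.49 FPKM over the groups and were called in no comparison of a mutant with wild type (named after their values were seen).

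The thioesterases divided, with FATA1 called in both mutants and FATB in neither. FATA1 (AT3G25110, chr3:9146271-9148525, minus strand) measured 88.2, 91.1 and 91.3 FPKM in dellaq and 45.5, 45.9 and 43.3 FPKM in lec1-4, against 69.0, 70.7 and 70.1 FPKM in Col-0-2 and 66.3, 66.7 and 68.5 FPKM in Col-0-1. It was higher in dellaq by 0.42 ± 0.036 (SE) against Col-0-1 and 0.36 ± 0.036 against Col-0-2 (adjusted p = 7.0e-07 and 2.5e-06). In lec1-4 its change was -0.63 ± 0.036 relative to Col-0-2 and -0.57 ± 0.036 relative to Col-0-1 (adjusted p = 2.9e-08 and 4.4e-07). Over the 4 rescalings the rise against Col-0-1 ranged from 0.23 to 0.67. FATA1 was not called between the wild-type sets (0.06 for Col-0-2 over Col-0-1, 95% interval -0.02 to 0.14, adjusted p = 0.174). That difference passed as higher in Col-0-2 with median-ratio scaling (0.18, adjusted p = 0.00235), upper-quartile scaling (0.11, adjusted p = 0.0195) and the length trend removed (0.17, adjusted p = 0.00301), and as lower with equal FPKM sums (-0.09, adjusted p = 0.0352).

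FATA2 (AT4G13050, chr4:7617428-7619657, plus strand) measured 74.9, 74.6 and 74.6 FPKM in dellaq and 50.2, 52.6 and 53.7 FPKM in lec1-4, against 58.1, 58.8 and 56.8 FPKM in Col-0-2 and 75.8, 82.4 and 80.4 FPKM in Col-0-1. It lay lower in lec1-4 than in either wild-type set (-0.15 against Col-0-2 and -0.60 against Col-0-1, adjusted p = 0.00638 and 7.8e-07), although the change against Col-0-2 ranged from -0.31 to 0.0042 over the 4 rescalings, with 0.0042 at equal FPKM sums (adjusted p = 0.933). In dellaq it rose against Col-0-2 (0.36, adjusted p = 7.4e-06). Against Col-0-1 the change was -0.09 (adjusted p = 0.0688), and its direction depended on the scaling. It was 0.17 with median-ratio scaling (adjusted p = 0.00311) and 0.15 with the length trend removed (adjusted p = 0.00735), but -0.27 with equal FPKM sums (adjusted p = 4.5e-05) and -0.12 without Col-0-1 replicate 1 (adjusted p = 0.0248).

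FATB (AT1G08510, chr1:2691062-2694547, minus strand) measured 97.5, 99.0 and 98.8 FPKM in dellaq and 101, 106 and 101 FPKM in lec1-4, against 101, 99.7 and 114 FPKM in Col-0-2 and 106, 105 and 100.1 FPKM in Col-0-1. The dellaq values were the lowest, by a small margin, and the other groups overlapped. The log2 change in dellaq was -0.07 against Col-0-1 (95% interval -0.18 to 0.04, adjusted p = 0.221) and -0.09 against Col-0-2 (-0.19 to 0.02, adjusted p = 0.141). In lec1-4 it was -0.03 against Col-0-2 (95% interval -0.13 to 0.08, adjusted p = 0.64) and -0.01 against Col-0-1 (-0.12 to 0.10, adjusted p = 0.903). These intervals hold for FPKM as deposited. With median-ratio scaling FATB was 0.19 higher in dellaq than in Col-0-1 (adjusted p = 0.00765) and changed by -0.19 in lec1-4 against Col-0-2 (adjusted p = 0.00743). With equal FPKM sums these values were -0.26 and 0.13 (adjusted p = 0.000746 and 0.0493). With the length trend removed they were 0.23 and -0.24 (adjusted p = 0.0018 and 0.00123), so no direction is given for FATB.

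Ratios between the thioesterases do not change when a whole library is multiplied by a factor, and no test was made of them. Removing the length trend can change them. By the reference annotation the exons cover 1659 bases in FATA1, 1717 in FATA2 and 2241 in FATB. FATA1 over FATB was 0.905, 0.9205 and 0.924 in dellaq and 0.449, 0.434 and 0.429 in lec1-4, against 0.685, 0.709 and 0.615 in Col-0-2 and 0.629, 0.638 and 0.684 in Col-0-1. The dellaq ratios lay above and the lec1-4 ratios below those of all 6 wild-type libraries, and the wild-type sets overlapped. FATA1 and FATA2 together over FATB gave 1.67 to 1.68 in dellaq and 0.932 to 0.962 in lec1-4, compared with 1.11 to 1.298 in Col-0-2 and 1.35 to 1.49 in Col-0-1. In lec1-4 alone FATB transcripts were above those of FATA1 and FATA2 combined. FATA1 over FATA2 fell along the library division, with dellaq and Col-0-2 high and lec1-4 and Col-0-1 low. It was 1.179 to 1.223 in dellaq and 0.807 to 0.906 in lec1-4, compared with 1.19 to 1.24 in Col-0-2 and 0.809 to 0.875 in Col-0-1. The part of the library features in this ratio was not tested. SSI2 over FATB was 2.61 to 2.83 in dellaq and 1.46 to 1.53 in lec1-4, compared with 1.52 to 1.73 in Col-0-2 and 1.90 to 2.12 in Col-0-1, so that lec1-4 and Col-0-2 overlapped.

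**Figure D4:**
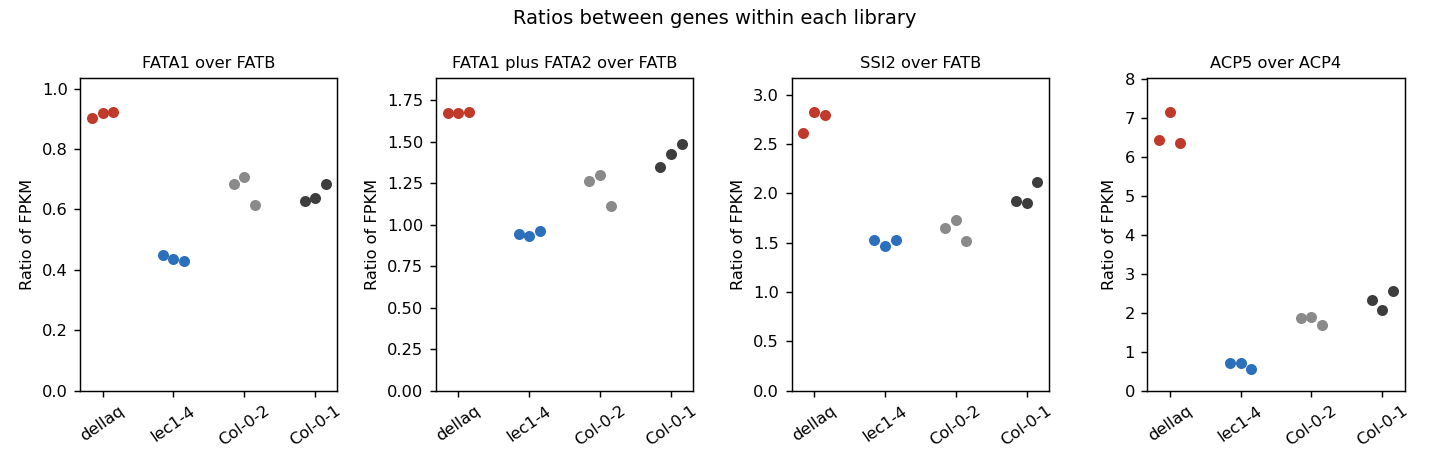
Ratio of FPKM between genes in each library (vertical axes start at 0, 1 point per library). FATA1 over FATB lies at 0.905 to 0.924 in dellaq and 0.429 to 0.449 in lec1-4, compared with 0.615 to 0.709 in Col-0-2 and 0.629 to 0.684 in Col-0-1.

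Within each group the 9 genes kept a broad order, with ACP1 and ACP2 on top, ACP3 next and the thioesterases and ACP4 low. The libraries of ACP1 and ACP2 overlapped in dellaq, while ACP2 was higher in the other groups. ACP5 moved most in this order. It came after the other 3 abundant carriers in dellaq, after SSI2 in both wild-type sets, and next to last in lec1-4, where it overlapped FATA2 above it and FATA1 below it. ACP5 also overlapped FATB in Col-0-2 and SSI2 in Col-0-1, and ACP4 overlapped FATA2 in Col-0-1. All other neighbours in the order were separated in every library of their group.

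The changes of the mutants were compared directly, in a way that uses no wild-type set as a shared control. With Col-0-1 as the base of dellaq and Col-0-2 as the base of lec1-4, the change in dellaq exceeded that in lec1-4 for 6 of the 9 genes and was below it for ACP4 (22.1% and 52.8% of all genes in those directions, 74.9% in either). With the sets exchanged it exceeded it for 7 genes and was below it for none (20.4% and 41.4%, 61.7% in either). The first arrangement combines the comparisons of mutant with wild type that cross the library division, and the second combines those that do not. The difference was 2.13 ± 0.128 and 3.67 ± 0.128 (SE) for ACP5 under the first and the second arrangement (adjusted p = 2.1e-08 and 1.9e-09). For FATA1 it was 1.05 ± 0.050 and 0.93 ± 0.050 (adjusted p = 3.2e-09 and 2.6e-08). For ACP4 it was -0.84 ± 0.097 and -0.01 ± 0.097 (adjusted p = 6.6e-06 and 0.947). Over the 4 rescalings the first of these ACP4 values ranged from -1.18 to -0.43 and the second from -0.05 to 0.17. For ACP5 the ranges were 1.52 to 2.54 and 3.63 to 3.96, and for FATA1 0.71 to 1.46 and 0.89 to 1.10. The first value of ACP1, 0.71, ranged from 0.18 to 1.13. For FATB it was -0.04 and -0.08 with FPKM as deposited (95% intervals -0.19 to 0.11 and -0.23 to 0.07, adjusted p = 0.594 and 0.355). The direction of the first FATB value depended on the scaling. It was 0.37 with median-ratio scaling, 0.19 with upper-quartile scaling and 0.47 with the length trend removed (adjusted p = 0.00064, 0.0347 and 8.7e-05). With equal FPKM sums it was -0.38 (adjusted p = 0.000444).

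The wild-type sets differed in 7 of the 9 genes, with 2 higher and 5 lower in Col-0-2 than in Col-0-1 (25.8% and 40.1% of all genes, 65.9% in either direction). Their libraries did not overlap for 8 of the 9 (70.7% of all genes). ACP2 and ACP3 were higher (0.24 and 0.13, adjusted p = 0.000208 and 0.0105). With equal FPKM sums these became 0.09 (adjusted p = 0.06) and -0.02 (adjusted p = 0.599). ACP1, ACP4, ACP5, SSI2 and FATA2 were lower by log2 changes between -0.77 and -0.26. Over the 4 rescalings these 5 ranged from -1.22 (ACP5) to -0.12 (SSI2). The differences between sets of the same genotype were thus as large as several of those between mutant and wild type.

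Other genes of plastid fatty acid synthesis mostly moved with the carriers. Of 25 genes listed under plastid pyruvate kinase, pyruvate dehydrogenase, acetyl-CoA carboxylase and chain building, 17 were higher and 1 lower in dellaq than in both wild-type sets. The gene lower in dellaq was PKp3, a plastid pyruvate kinase subunit (-0.75 against Col-0-2 and -0.61 against Col-0-1, adjusted p = 2.0e-06 and 1.1e-05), named after its values were seen. In lec1-4, none were higher and 19 lower than both. Their median change in dellaq was 0.19 relative to Col-0-1 and 0.45 relative to Col-0-2, and in lec1-4 -0.39 against Col-0-2 and -0.62 against Col-0-1. All 8 chain-building genes fell in lec1-4 against both sets and 7 rose in dellaq against both. All 7 genes listed under the carboxylase rose in dellaq against Col-0-2 and fell in lec1-4 against Col-0-1. Of these, 1 rose and 4 fell in dellaq against Col-0-1, and 1 rose and 3 fell in lec1-4 against Col-0-2. Both of those comparisons cross the library division. The list holds CAC1, BCCP2, CAC2 and CAC3, and also AT3G56130, AT1G52670 and AT3G15690, given by locus only. Whether these last 3 act as parts of the enzyme was not examined. They fell in dellaq against Col-0-1 (-0.10, -0.27 and -0.21), as did CAC1 (-0.11). AT1G52670 was the gene that rose in lec1-4 against Col-0-2 (0.19). These genes were named after their values were seen. No test compared the lists. EMB3003, a pyruvate dehydrogenase subunit, changed by -1.25 in lec1-4 against Col-0-2 and -1.13 against Col-0-1 (adjusted p = 8.2e-10 and 2.2e-08). FAB1, the ketoacyl-ACP synthase that makes stearoyl-ACP, averaged 289 ± 5.58 FPKM in dellaq, compared with 189 ± 9.36 in Col-0-2 and 201 ± 2.76 in Col-0-1 (0.61 and 0.52, adjusted p = 1.3e-07 and 5.1e-07). KASI, which builds the shorter chains, averaged 259 ± 2.74 FPKM in lec1-4, compared with 387 ± 5.38 in Col-0-2 and 434 ± 7.01 in Col-0-1 (-0.58 and -0.74, adjusted p = 1.1e-07 and 9.0e-08). BCCP2, a biotin carrier of the carboxylase, was the 1 gene of the carboxylase list higher in dellaq against both sets. It averaged 417 ± 6.68 FPKM there, compared with 222 ± 7.54 in Col-0-2 and 305 ± 11.03 in Col-0-1 (0.91 and 0.45, adjusted p = 2.0e-08 and 5.1e-06).

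WRI1, which binds the AW-box, was called against Col-0-1 and not against Col-0-2 in both mutants. Against Col-0-1 it fell in dellaq, where ACP1 and ACP5 rose, and fell in lec1-4, where they also fell. It averaged 135 ± 5.78 FPKM in dellaq and 154 ± 2.26 in lec1-4, compared with 143 ± 5.29 in Col-0-2 and 202 ± 7.39 in Col-0-1. In dellaq its change was -0.58 against Col-0-1 (adjusted p = 2.6e-07) and -0.08 against Col-0-2 (adjusted p = 0.109). In lec1-4 it was 0.10 against Col-0-2 (adjusted p = 0.0554) and -0.39 against Col-0-1 (adjusted p = 4.2e-05).

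**Figure D5:**
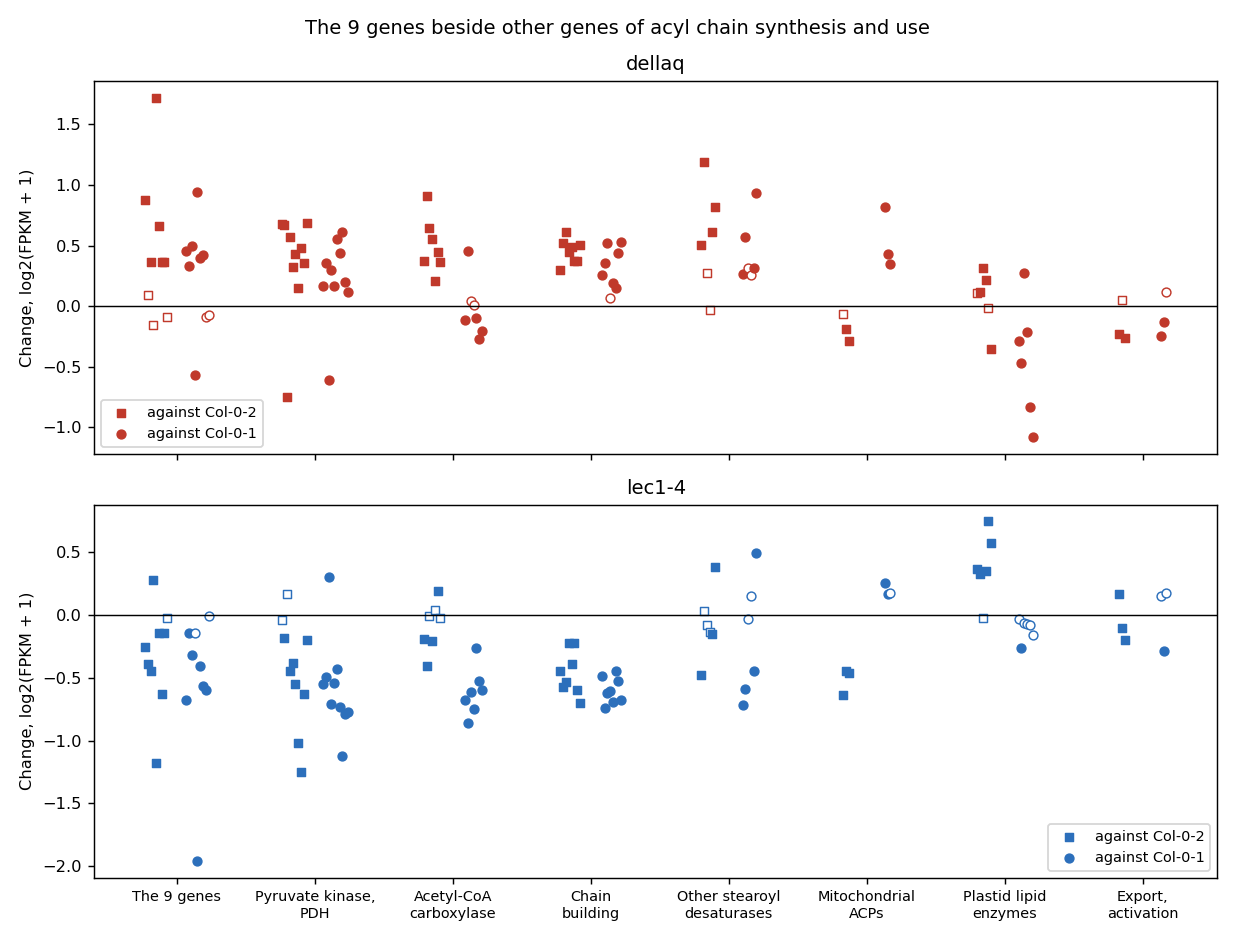
Log2 change (vertical axis, log2(FPKM + 1) scale) of the 9 genes and of other acyl chain genes in dellaq (upper panel) and lec1-4 (lower panel), with squares against Col-0-2, circles against Col-0-1 and filled symbols where the adjusted p is under 0.05. All 8 chain-building genes lie below 0 in lec1-4, while the 3 mitochondrial carrier genes lie on opposite sides of 0 against the 2 wild-type sets.

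For each of the 9 genes the genes nearest in pattern were found by Pearson's r of log2(FPKM + 1) over the 12 libraries, among genes averaging at least 5 FPKM. The libraries form 4 groups, so r describes these samples only. ACP1 was nearest to the desaturase-family gene AT3G02630 (r = 0.996) and to AT1G54860 (r = 0.994). ACP3 was nearest to AT2G34590, a pyruvate dehydrogenase subunit (r = 0.994), and AT1G42960 (r = 0.99). ACP5 was nearest to CYP86B1, a fatty acid hydroxylase (r = 0.991), and ROD1 (r = 0.991). SSI2 was nearest to PDIL1-1 (r = 0.996) and AT1G74470 (r = 0.995). FATA1 was nearest to MOD1, the enoyl-ACP reductase (r = 0.994), and EMB3003 (r = 0.989). FATA2 was nearest to CAC1, a biotin carrier of the carboxylase (r = 0.989), and BZIP34 (r = 0.98). ACP2 was nearest to TPI, a triosephosphate isomerase, and EMB3105 (both r = 0.988), and ACP4 to BRCC36A (r = 0.984) and AT4G32190 (r = 0.983). FATB had no neighbour as near, its highest being KUP7 (r = 0.822) and RAPTOR1 (r = 0.806). Its level varied little over the libraries (97.5 to 114 FPKM), so the lower r does not show a pattern of its own.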

How the data were processed

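The authors deposited FPKM values (fragments scaled by transcript length and library size) for each gene and library, per the file headers. DESeq 1.18.0, HTSeq 0.6.1, TopHat2 2.0.12 and Bowtie2 2.2.3 are named, with no role, in the submitters' processing notes. Genome build, annotation and counting mode: not given in the sources used here. Per the labels' protocols, poly-A RNA went into a library kit that does not mark strand. All 12 columns were mapped by name.

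From these values, limma 3.58.1 (R 4.3.3) was fitted on log2(FPKM + 1) with its trend option, 4 group means and 8 residual degrees of freedom, over 20222 genes (13380 left out by the filter). The threshold was an adjusted p of 0.05, and tests are two-sided. The fit was tested on simulated data. The pseudocount understates changes of low genes. Names and sequences came from RefSeq TAIR10.1 (32835 of the IDs matched), and alignments from Biopython 1.88. Its coordinates are those of that reference and were not joined with any of the authors'.

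The genes, lists and tests were chosen with earlier results of these data known. Named outside the 9 are, per list, up to 2 genes with the smallest p called against both wild-type sets, the 2 nearest genes in pattern, and genes said to be exceptions. Same-numbered replicates of different groups deviated from their group means with correlations of -0.10 to 0.19 (median 0.02), so the numbers were not taken to pair the samples.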

Additional observations from a re-analysis of the deposited data

How the results depend on the processing

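Settings tried were median-ratio, upper-quartile and equal-sum scaling, other filters (none, 5 FPKM), fitting the compared groups alone, a pseudocount of 0.1, a replicate block, each library left out, and, chosen after seeing the data, the length trend removed. ACP1, ACP3, ACP5, SSI2 and FATA1 rose in dellaq against both wild-type sets in each of the 20 fits of all comparisons, and ACP3, ACP5 and FATA1 fell in lec1-4 against both in each of them. The number of the 9 genes called in lec1-4 against both sets was 7, and 4 with equal FPKM sums. Leaving out a library gave 6 to 8 genes called for lec1-4 against either set. Of 1494 single-gene values, 1450 kept their side of the threshold without a called value turning, 6 lost their call, 21 gained it, and 17 turned in direction with a call in at least 1 of the fits compared. With equal FPKM sums the turned values were 0.012 (SSI2), 0.0042 (FATA2) and 0.13 (FATB) in lec1-4 against Col-0-2, -0.023 (ACP3), -0.092 (FATA1) and -0.13 (FATB) for Col-0-2 over Col-0-1, and -0.28 for the first difference of changes of FATA2. With median-ratio scaling they were 0.17 (FATA2) and 0.19 (FATB) in dellaq against Col-0-1, 0.23 (FATB) in dellaq against lec1-4, and 0.37 for the first difference of changes of FATB (0.19 with upper-quartile scaling). With the length trend removed they were 0.088 (ACP1, lec1-4 against Col-0-2), 0.15 (FATA2) and 0.23 (FATB) in dellaq against Col-0-1, 0.27 (FATB, dellaq against lec1-4) and 0.47 (FATB, first difference of changes). The cause of these turns was not tested. Median-ratio scaling moved the median change of all genes in dellaq against Col-0-1 to 0.0015, and equal FPKM sums to -0.39, beside -0.22 as deposited. With the replicate block 5 of the 9 genes were called in dellaq and 7 in lec1-4 against both sets, as without it. Of 36 best matches between groups, 13 had the same number.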

Other observations

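The mitochondrial acyl carrier genes, which serve lipoate synthesis and respiratory complex I, held no direction against both wild-type sets. MTACP-1 averaged 93.8 ± 4.00 FPKM in dellaq and 62.8 ± 1.51 in lec1-4, compared with 98.2 ± 2.52 in Col-0-2 and 52.7 ± 2.30 in Col-0-1 (SD, n = 3 each). None of the 3 mitochondrial carriers was called in the same direction against both wild-type sets in either mutant (limma, adjusted p under 0.05). Against Col-0-1 all 3 were higher in dellaq, and against Col-0-2 2 were lower, and these comparisons share the dellaq libraries.

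Genes listed for the fate of exported acyl groups varied in size and direction of change. KCS18 (also called FAE1), the elongase of seed fatty acids, averaged 248 ± 6.19 FPKM in dellaq and 7.76 ± 2.09 in lec1-4, compared with 33.4 ± 4.24 in Col-0-2 and 92.9 ± 15.6 in Col-0-1. Its log2 changes were 2.86 and 1.42 in dellaq (adjusted p = 2.2e-08 and 6.3e-06) and -1.996 and -3.44 in lec1-4 (adjusted p = 4.4e-07 and 4.2e-08) against Col-0-2 and Col-0-1. ROD1 averaged 111 ± 6.40 FPKM in dellaq and 17.3 ± 0.326 in lec1-4, compared with 42.4 ± 4.72 in Col-0-2 and 59.1 ± 6.79 in Col-0-1. Of the 6 genes of this kind, 4 were higher in dellaq and 2 lower in lec1-4 than both wild-type sets. Of 6 plastid lipid acyltransferase and desaturase genes, 1 rose (FAD5) and 1 fell (FAD8) in dellaq against both sets, and none was called against both in lec1-4.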
